A study of Mus musculus with 117 samples.

Results

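The strain by gland interaction asks, for each probe set, whether NOD-scid and B6-scid mice differed to another extent or in another direction in the lacrimal gland than in the submandibular gland. It was computed as the strain difference (NOD-scid minus B6-scid) in lacrimal gland minus the strain difference in submandibular gland, over the 19 gland samples of 15 weeks out of 39 in the series. All probe sets of the 3 Affymetrix MG-U74 version 2 array designs were eligible, 36701 without controls, and the 31441 that reached a scaled signal of 100 on at least 4 arrays were tested. The rule selected 90 of them, at an adjusted p under 0.05, as probe sets whose strain difference depended on the gland.

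The 4 groups were lacrimal gland of 5 B6-scid and 4 NOD-scid mice and submandibular gland of 5 mice of each strain, all female and all 15 weeks old. NOD-scid stands for NOD.CB17-Prkdc scid/J and B6-scid for B6.CB17-Prkdc scid/SzJ, so every mouse of every group carried the Prkdc scid mutation, which stops the rearrangement of antigen receptor genes and leaves mice without mature T and B cells. Both genomes therefore differ at all other loci that distinguish the NOD and B6 backgrounds, and no group isolates a single locus. Submandibular glands had been freed of sublingual gland, connective tissue and fat before RNA extraction, per the labels, while no such step is recorded for lacrimal glands. The labels give a mouse number to each sample and no pooling. Submandibular gland of 9 weeks and pancreas of 6 weeks, 5 mice per strain each, were used only to see whether a strain difference was also present in other samples.

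The lacrimal gland secretes the aqueous and protein part of tears, and the submandibular gland secretes saliva from acinar cells and from granular ducts rich in kallikreins and growth factors. In NOD mice both glands become targets of an autoimmune disease used as a model of Sjögren's syndrome. Scid mice, which lack mature T and B cells, are used to see the strain's gland traits without an infiltrate of such cells.

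Some samples had high signals for some transcripts known from another gland, and their source was not tested. B6-scid lacrimal samples 2 and 3 had Amy1, the salivary amylase of the parotid gland, at scaled signals of 185011 and 181639, against 37.0 to 111 in the other 3 B6-scid and 6.28 to 58.1 in the 4 NOD-scid lacrimal samples. The parotid secretory protein gene Bpifa2 stood at 160308 and 268249 in the same samples and at 348 to 395 in the other 3. NOD-scid lacrimal sample 4 had 27685 for Mucl1, a gene of a secreted mucin-like protein, against 492 to 1772 in the other 3. It also had 76723 against 1259 to 2043 for Prol1, the gene of a salivary apomucin of submandibular acini. Prol1 stood at 39540 to 97810 in the B6-scid lacrimal samples, so sample 4 stood out in Prol1 among NOD-scid lacrimal samples only. B6-scid lacrimal samples 1, 4 and 5 were kept despite this level. B6-scid submandibular sample 1 had 13140 for the odorant-binding protein gene Obp1a, which the lacrimal gland makes, against 141 to 574 in samples 2 to 5. Results are given with and without these 4 samples where leaving them out changes a call. B6-scid submandibular sample 3 was not among the 4, although its Bpifa2 signal of 20018 and that of sample 1 (15142) stood above 1279 to 1708 in the other 3, while its Amy1 and Prpmp5 signals were not raised. Without sample 3 there were 65 interaction calls, 63 of them among the 90 given below.

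**Figure D1:**
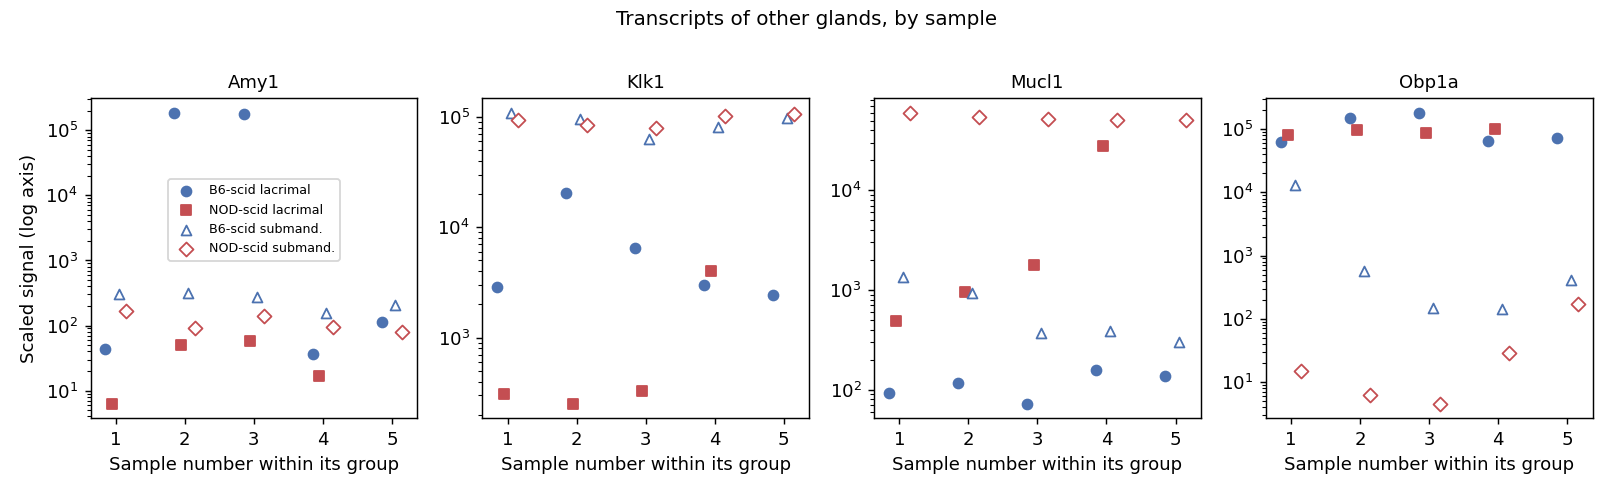
Scaled signal (log axis) of Amy1, Klk1, Mucl1 and Obp1a in each of the 19 samples, plotted by sample number within its group. Filled symbols are lacrimal gland, open symbols submandibular gland, blue B6-scid and red NOD-scid. B6-scid lacrimal samples 2 and 3 are high in Amy1, and B6-scid submandibular sample 1 is high in Obp1a. NOD-scid lacrimal sample 4 is above the other NOD-scid lacrimal samples in Klk1 and Mucl1. Its Klk1 level lies within the range of the B6-scid lacrimal samples.

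The defining lacrimal markers Obp1a and Scgb1b2 were high in all 9 lacrimal samples, at 62230 to 181000 for Obp1a. Klk1 was high in all 10 submandibular samples, at 63616 to 108327. Summed signals of 2 T cell markers were 66.5 to 215 and of 2 lymph node markers 66.6 to 353 over the 19 samples. Those of 2 B cell markers were higher, at 428 to 1154, and their source was not tested. Prkdc itself was read at 25.3 to 176, and its interaction was -0.41 (SE 0.43, adjusted p = 0.816), which does not test the mutation. Mean correlations of a sample with its group were 0.839 to 0.877, and the Actb 3' to 5' ratio was 1.3 to 2.43.

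Among the named genes whose strain difference depended on the gland, the MHC class I genes B2m, H2-D1 and H2-K1 fell in NOD-scid lacrimal gland and were not called in submandibular gland with all samples, and the folding gene Sdf2l1 rose in lacrimal gland and was not called in submandibular gland. Without the 4 samples H2-K1 was called in submandibular and not in lacrimal gland, and the Sdf2l1 interaction was not called. The O-glycan enzymes St6galnac1 and Gcnt1 rose in NOD-scid submandibular gland, and Agr2 and Olfml2a changed in opposite directions in the 2 glands. With the 4 samples left out, Agr2 was called in submandibular gland alone and Olfml2a in neither gland, while both interactions were still called. The interaction was called in 90 of 31441 probe sets (0.286%), 41 with a NOD-scid minus B6-scid difference higher in lacrimal gland (0.13%) and 49 with it lower (0.156%), by limma with Benjamini-Hochberg adjustment over all probe sets. At an unadjusted p under 0.05 there were 3015. The 90 comprised 59 genes named by a single symbol, and their absolute interaction ran from 1.28 to 7.67 on the log2 scale with a median of 2.33, so that 62 were at least 4-fold. A log2 difference is on the scale log2(signal + 32), which understates changes of dim probe sets. Leaving out B6-scid lacrimal samples 2 and 3 gave 91 calls, 57 of them among the 90, and leaving out all 4 samples gave 74, 40 of them among the 90. All 90 kept their sign in both cases. The 74 include Prol1, Mucl1 and tissue kallikrein probe sets, for which the removal of NOD-scid lacrimal sample 4 is no test.

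The strain difference itself was called in 627 probe sets in lacrimal gland (1.99%) and in 243 in submandibular gland (0.773%). NOD-scid was higher in 259 (0.824%) and lower in 368 (1.17%) in lacrimal gland. In submandibular gland NOD-scid was higher in 90 (0.286%) and lower in 153 (0.487%). The strain difference was called in both glands for 102, of which 98 had the same sign and 4 opposite signs. Of 525 called in lacrimal but not in submandibular gland, the interaction was called in 53, and of 141 called in submandibular but not in lacrimal gland, in 18. For the rest a difference between the glands was not shown. Because these are bulk samples, fewer cells of a type and less RNA per cell cannot be told apart in any of these differences.

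The 90 were sorted by how each gland behaved, as a description of the same values. In 34 the strains differed in lacrimal gland only, with the submandibular difference not called and under 0.5 in size. For 30 of these the submandibular mean signal was at least 100 in at least 1 strain, which the other strain need not have reached. NOD-scid was higher in 14 of the 34 and lower in 20. In 7 the strains differed in submandibular gland only, 5 higher and 2 lower in NOD-scid. In 4 both glands were called with opposite signs, and in 8 both were called with the same sign and unequal size. Another 19 were called in lacrimal and 11 in submandibular gland while the other gland's uncalled difference reached 0.5, and in 15 and 10 of these the signs were opposite. In 7 neither gland alone was called. The strain difference had opposite signs in the glands for 63 of the 90. Over up to 31 alternative settings of the 15-week samples without a mouse block, the call held in every one for 34 of the 90, including all 4 reversed probe sets, 4 of 7 submandibular only and 7 of 34 lacrimal only. Without the 4 samples 29 probe sets were sorted as lacrimal only, 8 as submandibular only and 1 as reversed. The 29 are a description and no test, since they include Prol1, Klk1 and other tissue kallikreins, not called with all samples. NOD-scid lacrimal sample 4 was left out for its high level of such transcripts, so its removal itself favoured these calls.

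**Figure D2:**
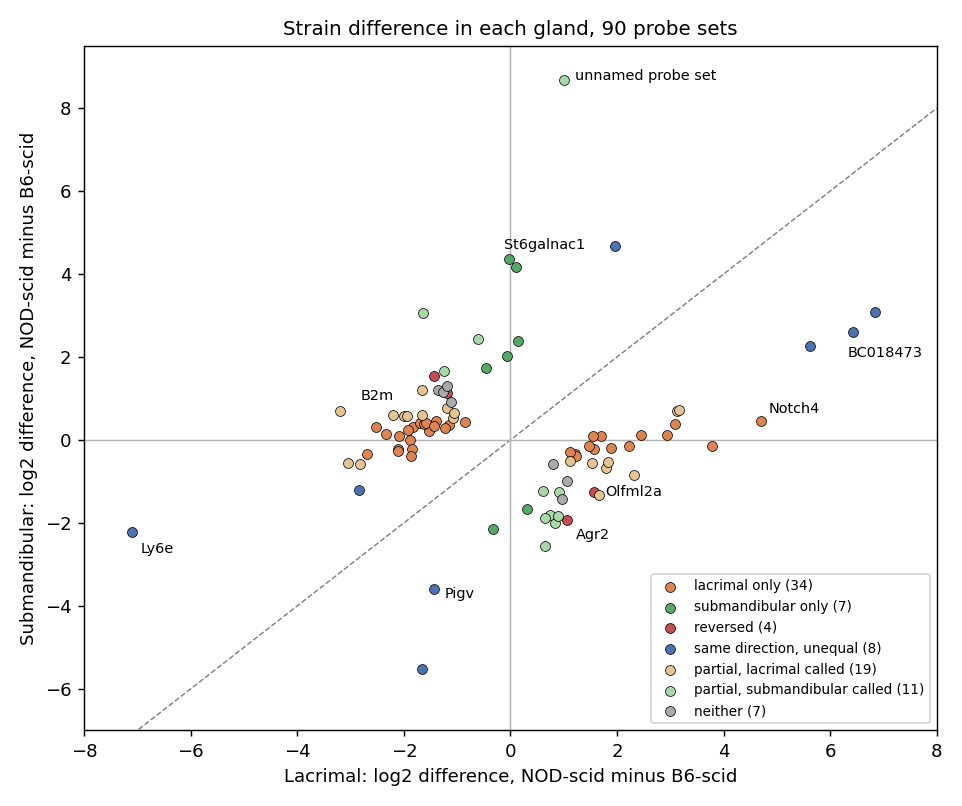
Log2 difference between NOD-scid and B6-scid in lacrimal gland (horizontal) and in submandibular gland (vertical) for the 90 probe sets called in the interaction, 1 point each, coloured by pattern with the count in the legend. The dashed line marks an equal difference in both glands, and 63 of 90 points lie in the quadrants where the glands differ in sign.

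MHC class I molecules present peptides at the cell surface as a heavy chain paired with the light chain B2m. B2m signal in B6-scid lacrimal gland was 4552, 12190, 6982, 4208 and 5080 and in NOD-scid lacrimal gland 1639, 1106, 1316 and 1151. In submandibular gland it was 4968, 11918, 11290, 10521 and 8550 in B6-scid and 16718, 16608, 13467, 14207 and 9532 in NOD-scid. All NOD-scid lacrimal samples lay below all B6-scid lacrimal samples, and the submandibular groups overlapped. B2m fell by 2.21 (SE 0.31, adjusted p = 0.00046) on the log2 scale in NOD-scid lacrimal gland, while the submandibular difference was 0.61 (SE 0.29, adjusted p = 0.574), and the interaction was -2.82 (SE 0.43, adjusted p = 0.00335). The interaction of B2m was -2.16 without the 4 samples, and its adjusted p over 31 alternatives stayed between 4.32e-05 and 0.0109. These 31, used for every range over alternatives, do not include the replicate blocks or the fit with submandibular samples of 9 weeks in place of 15 weeks. In that last fit B2m was at -2.15 and not called (adjusted p = 0.0515), and of 32 named genes called in the interaction 12 were still called and all 32 kept their sign.

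B6-scid lacrimal samples 2 and 3, which held parotid transcripts, were the highest of their group for B2m, and without them its interaction was -2.42 (adjusted p = 0.00861).

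The classical heavy chain H2-D1 was called in the same direction. Its probe set with the largest interaction read 5840, 15722, 9501, 6505 and 6124 in B6-scid and 2512, 2264, 2051 and 1616 in NOD-scid lacrimal gland, against 13363, 15933, 13253, 12462 and 10968 in B6-scid and 18693, 20915, 17102, 20248 and 21118 in NOD-scid submandibular gland. The groups did not overlap in either gland, with NOD-scid the lower in lacrimal and the higher in submandibular gland, although the submandibular difference of 0.58 (SE 0.24, adjusted p = 0.458) was not called. H2-D1 had an interaction of -2.52 (SE 0.34, adjusted p = 0.00148; 5.97e-06 to 0.00475 over the alternatives). Its 2 other probe sets had interactions of -1.50 and -2.27, with adjusted p of 0.0494 and 0.0492, which were lost in 23 and 20 of 31 alternatives.

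H2-K1, the other classical heavy chain measured, read 1582 to 4322 in B6-scid and 710 to 1151 in NOD-scid lacrimal gland, against 1727 to 2392 and 3161 to 3615 in submandibular gland, with no overlap in either. Its interaction was -1.97 (SE 0.34, adjusted p = 0.012, 0.00119 to 0.0294 over the alternatives). The H2-K1 interaction without the 4 samples was -1.40 (adjusted p = 0.0225), with the lacrimal difference at -0.68 and not called (adjusted p = 0.114) and the submandibular one at 0.72 and called (adjusted p = 0.0455). With B6-scid lacrimal samples 2 and 3 alone left out, these 2 differences were -0.82 (adjusted p = 0.0514) and 0.77 (adjusted p = 0.0292). A second H2-K1 probe set gave -1.29 (adjusted p = 0.169) and another, dim one -0.04. The nonclassical gene H2-Q4 fell by 1.62 in NOD-scid lacrimal gland and differed by 0.39 in submandibular gland (interaction -2.01, SE 0.40, adjusted p = 0.0327). The H2-Q4 call was lost on leaving out any of 11 of the 19 samples singly, with adjusted p up to 0.0775 without NOD-scid lacrimal sample 3, and without the 4 samples (0.128). Over its alternatives the adjusted p of H2-Q4 ran from 0.00875 to 0.128.

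**Figure D3:**
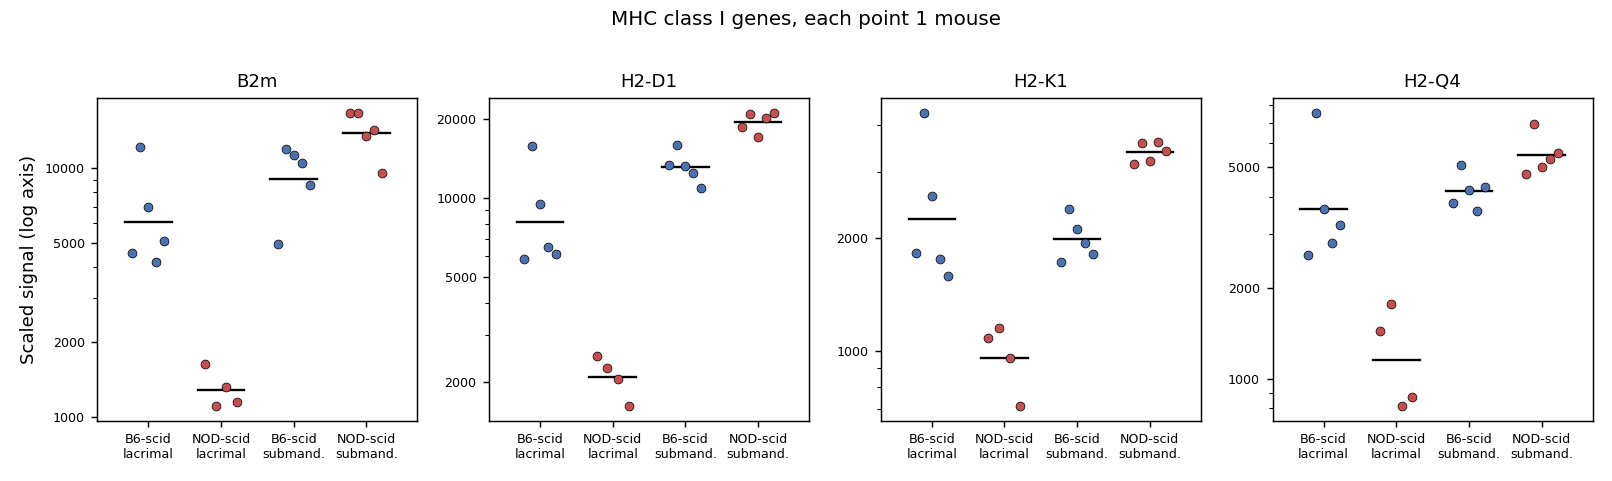
Scaled signal (log axis) of B2m, H2-D1, H2-K1 and H2-Q4 in the 19 samples by strain and gland, 1 point per mouse, with the geometric mean as a bar. In lacrimal gland the 4 NOD-scid samples lie below the 5 B6-scid samples in every panel; in submandibular gland the NOD-scid points lie above the B6-scid points for H2-D1 and H2-K1 and overlap them for B2m and H2-Q4.

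Of the 21 class I and antigen-processing genes listed, 17 were tested. On the probe set chosen for each gene, 2 passed in the interaction, both lower, and 0 higher, with a median of -0.35 against 0.01 over all probe sets. In lacrimal gland 6 of 17 fell in NOD-scid and 0 rose (median -0.48, all probe sets 0.02), and in submandibular gland 0 were called (median 0.07, all probe sets 0.01). Over all probe sets 368 of 31441 (1.17%) fell in lacrimal gland. With the 4 samples left out, 2 of 17 passed in the interaction (median -0.31) and 2 fell in lacrimal gland (median -0.73). The 6 were H2-D1, H2-K1, B2m, the peptide transporter subunit Tap1 (-0.99), its partner tapasin (Tapbp, -0.93) and the immunoproteasome subunit Psmb8 (-1.18). Tapbp had a submandibular difference of -0.73 and an interaction of -0.20 (adjusted p = 0.891), unlike the heavy chains. Psmb8 had an interaction of -1.57 (adjusted p = 0.0811). Nlrc5, the transactivator of class I genes, read 9.66 to 125 in NOD-scid and 31.3 to 400 in B6-scid lacrimal gland with overlap, and its interaction of -2.37 was not called (adjusted p = 0.217).

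Most class I probe sets match several members of the family, and NOD and B6 mice carry different MHC haplotypes, so the part of allele sequence in a probe set's level was not tested. Of 12 class II genes tested, 0 were called in the interaction by limma, with a median of 0.03, while 1 fell in lacrimal and 2 in submandibular gland. Over all probe sets 1.17% fell in lacrimal and 0.487% in submandibular gland. Of 32 interferon-regulated genes tested, 0 were called in the interaction by limma, while 3 fell in lacrimal gland, Irf9, Ifi204 and Ifitm3, and 0 in submandibular gland. Their medians were -0.79 in lacrimal and -0.38 in submandibular gland, an interaction median of -0.45. Summed signals of 3 macrophage markers were 519 to 1327 in B6-scid and 697 to 960 in NOD-scid lacrimal gland, and 1036 to 1623 in submandibular gland, and their part in the class I result was not tested.

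The promoters of the 3 class I list genes with a called probe set are shown because their called interactions had the same sign. Whether these genes share a control was not tested. Each sequence is the 250 bases before and 50 after the annotated start, 5' to 3' on the gene's strand, from RefSeq on GRCm38.p6, a B6 assembly. Capitals mark a match to a short form of the interferon-stimulated response element in B2m (TTTC, any 2 bases, TTTC) and to a form of the kappaB site in H2-D1 and H2-K1 (GGGGA, any 1 base, TCCCC), searched on both strands.
B2m, chr2:122147437-122147736, plus strand: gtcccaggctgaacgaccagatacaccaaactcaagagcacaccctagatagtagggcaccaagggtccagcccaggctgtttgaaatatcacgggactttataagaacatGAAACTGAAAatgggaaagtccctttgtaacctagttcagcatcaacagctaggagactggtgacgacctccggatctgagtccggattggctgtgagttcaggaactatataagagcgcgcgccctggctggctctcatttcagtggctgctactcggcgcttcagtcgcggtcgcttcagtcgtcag
H2-D1, chr17:35262844-35263143, plus strand: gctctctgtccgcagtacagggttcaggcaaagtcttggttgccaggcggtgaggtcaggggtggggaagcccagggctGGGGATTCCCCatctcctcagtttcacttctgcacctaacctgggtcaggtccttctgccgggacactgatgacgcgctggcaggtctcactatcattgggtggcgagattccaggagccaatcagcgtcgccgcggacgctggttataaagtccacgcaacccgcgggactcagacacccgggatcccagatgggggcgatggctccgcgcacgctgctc
H2-K1, chr17:34000298-34000597, minus strand: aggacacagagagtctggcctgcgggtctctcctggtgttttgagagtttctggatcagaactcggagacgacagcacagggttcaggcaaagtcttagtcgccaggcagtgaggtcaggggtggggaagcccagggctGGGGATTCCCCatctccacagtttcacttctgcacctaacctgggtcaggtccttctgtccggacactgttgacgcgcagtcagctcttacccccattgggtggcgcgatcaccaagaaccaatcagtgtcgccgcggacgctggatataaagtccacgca
The interferon element was found in 1131 of 32851 promoters (3.443%) and in 4 of 16 class I list genes with a promoter, B2m, Erap1, H2-T23 and Psme1. The kappaB form was found in 16 promoters (0.049%), with H2-D1 and H2-K1 the only 2 of the 16 list genes. A match is a description of the letters only.

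Some genes of protein folding in the endoplasmic reticulum were higher in NOD-scid lacrimal gland, 6 of 39 tested. Over all probe sets 259 of 31441 (0.824%) were called higher there. Sdf2l1, a stress-induced partner of chaperones, read 2034, 1838, 1634, 1789 and 2081 in B6-scid and 7058, 3874, 5109 and 5369 in NOD-scid lacrimal gland. Submandibular values were 1063, 1323, 1253, 856 and 1217 in B6-scid and 1423, 750, 968, 1223 and 865 in NOD-scid. The lacrimal groups were apart and the submandibular groups overlapped. Sdf2l1 rose by 1.47 (SE 0.22, adjusted p = 0.000751) in NOD-scid lacrimal gland and differed by -0.14 (SE 0.20, adjusted p = 0.92) in submandibular gland, an interaction of 1.62 (SE 0.30, adjusted p = 0.0189). The call was lost without B6-scid lacrimal samples 2 and 3 (1.54, adjusted p = 0.0649) and without all 4 samples (1.55, adjusted p = 0.13). Over its 31 alternatives the adjusted p ran from 0.0101 to 0.13.

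Hspa5, the main chaperone of the compartment (BiP), read 8016, 9308, 7092, 8417 and 8482 in B6-scid and 21877, 16033, 20747 and 19608 in NOD-scid lacrimal gland, with no overlap. Submandibular values were 3384 to 7383 and 4377 to 7696. Hspa5 rose by 1.24 (SE 0.23, adjusted p = 0.0065) in lacrimal gland, but its interaction of 1.17 (SE 0.32) was not called (adjusted p = 0.169, 0.0305 to 0.27 over the alternatives). B6-scid submandibular sample 1, at 3384, was the lowest of the 19.

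Creld2, another gene induced by unfolded protein, had 500 to 977 in B6-scid and 1826 to 2982 in NOD-scid lacrimal gland, against 276 to 626 and 462 to 642 in submandibular gland. Its interaction was 1.54 (SE 0.34, adjusted p = 0.07) over 19 samples and 1.87 (SE 0.30, adjusted p = 0.0129) without the 4 samples. Creld2 passed in 7 of 31 alternatives, with adjusted p from 0.00697 to 0.142.

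**Figure D4:**
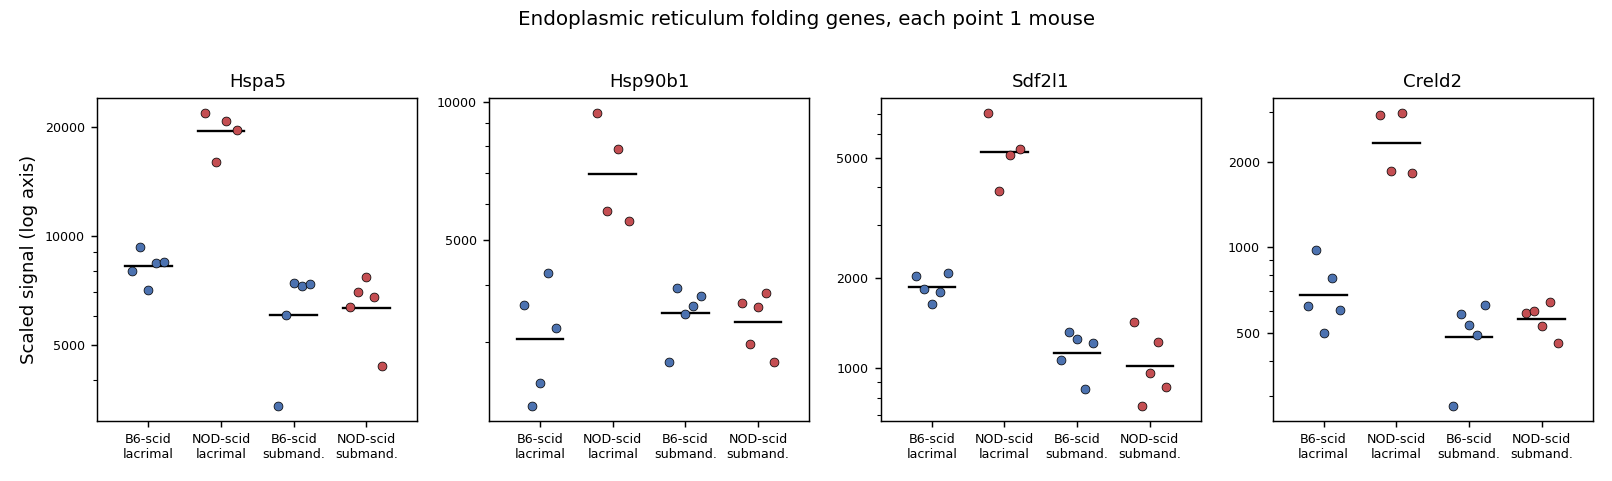
Scaled signal (log axis) of Hspa5, Hsp90b1, Sdf2l1 and Creld2 in the 19 samples by strain and gland, 1 point per mouse, with the geometric mean as a bar. NOD-scid lacrimal samples lie above all other samples in each panel, and the submandibular groups of the 2 strains overlap.

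Of 40 folding genes listed, 39 were tested. In lacrimal gland 6 rose and 0 fell, namely Hspa5, the chaperones Hsp90b1 (1.19) and Hyou1 (1.38), the disulfide isomerase Pdia4 (1.70), Sdf2l1 and Creld2 (1.74), and 29 of 39 differences were above 0 (median 0.39). In submandibular gland 0 were called and 15 of 39 were above 0 (median -0.13). The interaction was above 0 for 31 of 39 with a median of 0.52 against 0.01 over all probe sets, and was called for Sdf2l1 alone, by limma. The median was 0.64 without the 4 samples, where 1 of 38 tested was called, Creld2. Of 26 genes of the amino acid stress branch, 0 were called in the interaction (median 0.17).

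The promoters of Hspa5 and Creld2 are shown for the stress response element that some folding genes hold. Capitals mark a match to the endoplasmic reticulum stress response element (CCAAT, any 9 bases, CCACG), searched on both strands.
Hspa5, chr2:34771840-34772139, plus strand: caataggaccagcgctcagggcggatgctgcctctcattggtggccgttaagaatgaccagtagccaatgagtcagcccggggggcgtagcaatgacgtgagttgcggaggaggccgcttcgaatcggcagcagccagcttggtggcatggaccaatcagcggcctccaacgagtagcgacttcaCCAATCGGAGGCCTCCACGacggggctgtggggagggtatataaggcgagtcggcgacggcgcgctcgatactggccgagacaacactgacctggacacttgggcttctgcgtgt
Creld2, chr15:88819396-88819695, plus strand: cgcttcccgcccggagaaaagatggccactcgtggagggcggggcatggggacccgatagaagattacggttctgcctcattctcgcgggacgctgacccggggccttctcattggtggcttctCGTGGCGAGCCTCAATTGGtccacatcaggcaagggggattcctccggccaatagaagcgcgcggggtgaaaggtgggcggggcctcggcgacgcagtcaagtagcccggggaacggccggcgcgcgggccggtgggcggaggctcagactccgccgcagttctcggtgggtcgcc
The element was found in 39 of 32851 promoters (0.119%) and in 10 of 34 folding genes with a promoter (29.4%), among them Hsp90b1, Dnajc3 and Pdia6. The Sdf2l1 promoter (chr16:17132334-17132633) held no match to these letters.

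Other genes were higher in NOD-scid in the lacrimal gland only. Snx20, a sorting nexin, read 83.8, 47.9, 108, 149 and 64.5 in B6-scid and 403, 435, 621 and 675 in NOD-scid lacrimal gland, with 42.5 to 92.0 over both submandibular groups. The 4 NOD-scid lacrimal samples stood above all others, and the interaction of Snx20 was 2.38 (SE 0.33, adjusted p = 0.00175). All submandibular values of Snx20 lay under the signal minimum used for testing, so little can be said of a strain difference there. Mug-ps1, a murinoglobulin pseudogene, had 66.4 to 475 in B6-scid and 1629 to 2088 in NOD-scid lacrimal gland and 66.5 to 160 in submandibular gland (interaction 2.69, SE 0.47, adjusted p = 0.0123). Both calls held without the 4 samples, at an adjusted p of 0.0156 for Snx20 and 0.0403 for Mug-ps1, the highest over their alternatives.

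The largest lacrimal-only difference was in a probe set of Notch4, a Notch receptor of endothelial cells, at 51.2 to 357 in B6-scid and 4840 to 7903 in NOD-scid lacrimal gland against 193 to 576 in submandibular gland. Its interaction was 4.24 (SE 0.49, adjusted p = 0.000249). The other 2 Notch4 probe sets did not share it, with interactions of -0.27 and -0.21, so the difference was seen in 1 of 3 probe sets.

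Cyp27b1, the enzyme that activates vitamin D, read 128 to 261 in B6-scid and 474 to 778 in NOD-scid lacrimal gland against 69.1 to 217 in submandibular gland. It rose by 1.57 in lacrimal gland and differed by -0.22 in submandibular gland (interaction 1.78, SE 0.35, adjusted p = 0.0289). The Cyp27b1 call was lost on leaving out any of 7 samples singly, with adjusted p up to 0.0727 without NOD-scid lacrimal sample 3, and with the 4 samples left out (0.0818), and it ran from 0.0151 to 0.154 over the alternatives. The histone gene H3c14, at 7134 to 11622 in B6-scid and 23879 to 33343 in NOD-scid lacrimal gland, had an interaction of 1.61 (adjusted p = 0.00896, and 0.103, the highest over its alternatives, without the 4 samples). BC051019 (2.81) and Ly6g2, a Ly6 family gene (2.34), completed the named genes of this direction, and both lost the call without the 4 samples, at adjusted p of 0.0775 and 0.13. Their adjusted p ran from 0.000844 to 0.1 and from 0.00923 to 0.13 over the alternatives, and Ly6g2 was lost on leaving out any of 15 samples singly, up to 0.0934 without NOD-scid lacrimal sample 2. The called BC051019 probe set read 9.12 to 77.6 in submandibular gland, under the signal minimum used for testing, so a strain difference there could hardly be seen. A second BC051019 probe set had an interaction of -0.71 and was not called.

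Among genes lower in NOD-scid in the lacrimal gland only, E330020D12Rik read 1114, 1122, 864, 922 and 1260 in B6-scid and 108, 91.5, 140 and 378 in NOD-scid lacrimal gland, with 32.7 to 109 in submandibular gland. The B6-scid lacrimal samples stood apart from all others, and the interaction was -2.84 (SE 0.43, adjusted p = 0.00335, at most 0.0127 over the alternatives). Submandibular values of E330020D12Rik lay under or just above the signal minimum used for testing, so a lower NOD-scid level there could hardly be seen. A second, dimmer probe set of E330020D12Rik gave 0.42 and was not called. Ephx1, the microsomal epoxide hydrolase, read 908 to 2124 in B6-scid and 128 to 527 in NOD-scid lacrimal gland and 1893 to 3639 in submandibular gland, where the strains differed by -0.34. Its interaction of -2.36 (SE 0.43, adjusted p = 0.0174) was lost without NOD-scid lacrimal sample 3 (adjusted p = 0.0525) and without the 4 samples (0.169), with a range of 0.000156 to 0.169 over the alternatives.

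Several regulators were in the same class. The ubiquitin ligase Dtx4 had an interaction of -2.19 (adjusted p = 0.0262), the ligand Efna2 of Eph receptors -2.14 (adjusted p = 0.00959) and the membrane protease hepsin, Hpn, -1.99 (adjusted p = 0.0269). One of 5 probe sets of Rxra, the retinoid X receptor alpha, had -2.16 (adjusted p = 0.0203), and the other 4 ran from -0.24 to 0.94. Dtx4, Efna2 and Hpn also had a second probe set each, with interactions of -0.71, -0.79 and 0.47, none called. Without the 4 samples the interaction kept its sign and was not called for Dtx4 (adjusted p = 0.114), Efna2 (0.0781), Hpn (0.0512), Rxra (0.161) and Gm10229 (0.0545). Those were the highest values over the alternatives for Dtx4, Efna2 and Gm10229, while Hpn reached 0.0596 and Rxra 0.192. The calls of Dtx4 and Hpn were also lost on leaving out any of 8 samples singly, up to 0.0654 without NOD-scid lacrimal sample 1 and 0.0596 without NOD-scid submandibular sample 3, and that of Rxra without NOD-scid lacrimal sample 1 (0.0501).

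Nocturnin (Noct), a rhythmically expressed phosphatase of NADPH, was lower in NOD-scid mainly in lacrimal gland. Its signal was 7061, 12076, 6845, 7614 and 8043 in B6-scid and 1005, 1447, 917 and 1191 in NOD-scid lacrimal gland. In submandibular gland it was 1748 to 2995 and 1270 to 1858, with overlap. Noct fell by 2.82 (SE 0.22, adjusted p = 2.55e-07) in lacrimal gland against a difference of -0.59 (adjusted p = 0.315) in submandibular gland, an interaction of -2.23 (SE 0.30, adjusted p = 0.00121, at most 0.00942 over the alternatives). The other Noct probe set had an interaction of 0.97 (adjusted p = 0.298), opposite in sign. Of 22 clock genes tested Noct alone was called, and the median interaction of the list was 0.55.

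Among the genes called in submandibular gland were 2 enzymes that build mucin-type O-glycans, St6galnac1 and Gcnt1. St6galnac1 transfers sialic acid to the first sugar of such chains. Its signal was 80.8, 39.2, 50.3, 27.3 and 14.9 in B6-scid and 1152, 1009, 1968, 1370 and 1851 in NOD-scid submandibular gland, against 23.9 to 336 and 43.8 to 110 in lacrimal gland. The 5 NOD-scid submandibular samples stood above all others, and the lacrimal groups overlapped. St6galnac1 rose by 4.35 (SE 0.40, adjusted p = 4.65e-06) in submandibular gland and differed by -0.02 (SE 0.43, adjusted p = 0.991) in lacrimal gland, an interaction of -4.37 (SE 0.59, adjusted p = 0.00121, at most 0.00432 over the alternatives). At 9 weeks the submandibular difference was 4.03 (adjusted p = 1.9e-05).

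Gcnt1, which adds the core 2 branch, read 300, 215, 220, 286 and 346 in B6-scid and 1688, 1423, 1557, 2256 and 1070 in NOD-scid submandibular gland on the first of 2 called probe sets. Its lacrimal values were 397 to 727 and 517 to 745, overlapping. The difference was 2.40 in submandibular and 0.15 in lacrimal gland, and the interaction was -2.25 (SE 0.31, adjusted p = 0.00157). A second Gcnt1 probe set had an interaction of -4.72 (SE 0.82, adjusted p = 0.0124), in which B6-scid lacrimal samples 2 and 3 stood at 4661 and 1594 against 207 to 410 in the other 3. Without the 4 samples this second value was -3.57 and the first -2.20, both called. With submandibular samples of 9 weeks in place of 15 weeks the first was -1.06 and not called (adjusted p = 0.418). Of 2 further Gcnt1 probe sets, both dimmer, neither was called (-2.90 and 0.24).

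Of 29 mucin glycosylation genes tested, these 2 were called in the interaction and 3 rose in submandibular gland, the third being the sialyltransferase St6galnac2 (1.75, interaction -1.37, adjusted p = 0.321), while 0 were called in lacrimal gland. Their median interaction was -0.05, and 0.286% of all probe sets were called higher in submandibular gland. Mucl1, a mucin-like gene, rose in both glands of NOD-scid mice, from 300 to 1353 up to 50310 to 59741 in submandibular gland and from 72.4 to 159 up to 492 to 27685 in lacrimal gland. With all samples its interaction was -2.53 (SE 1.04, adjusted p = 0.432), and without the 4 samples it was -4.18. No test is given for the latter, since NOD-scid lacrimal sample 4 was left out for its own Mucl1 level. Among alternatives that kept this sample Mucl1 was not called.

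Wdr92, a WD repeat protein, was measured at high level in both glands. It read 13190, 11438, 10600, 8828 and 7725 in B6-scid and 33139, 37418, 38156, 34006 and 27298 in NOD-scid submandibular gland, against 4360 to 5147 and 3043 to 3774 in lacrimal gland. The strains were apart in both glands but in opposite order. Wdr92 rose by 1.73 (SE 0.17, adjusted p = 8.42e-06) in submandibular gland, differed by -0.47 (SE 0.18, adjusted p = 0.215) in lacrimal gland, and had an interaction of -2.19 (SE 0.25, adjusted p = 0.000249, at most 0.00146 over the alternatives). A second Wdr92 probe set had an interaction of 0.36 and was not called. In pancreas of 6 weeks the first probe set rose by 3.03 (adjusted p = 0.000902), so the difference was present in another gland.

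Tmigd1, an adhesion protein, rose by 2.03 in NOD-scid submandibular gland (interaction -2.09, adjusted p = 0.0336), while the lipid-binding protein gene Osbpl6 (-1.67) and the ubiquitin ligase Trim16 (-2.14) fell, with interactions of 1.98 (adjusted p = 0.0296) and 1.82 (adjusted p = 0.0408). Trim16 read 556 to 1033 in B6-scid and 98.5 to 275 in NOD-scid submandibular gland and 54.4 to 178 in lacrimal gland. These 3 calls were lost on leaving out any of 11 to 16 samples singly and without the 4 samples (adjusted p = 0.162, 0.121 and 0.153 in the order named). Leaving out B6-scid submandibular sample 3 gave the highest single-sample values for Tmigd1 (0.0715) and Trim16 (0.0847), and leaving out NOD-scid lacrimal sample 2 that for Osbpl6 (0.0697). The adjusted p over the 31 alternatives reached 0.162 for Tmigd1, 0.436 for Osbpl6 and 0.153 for Trim16, and the other 3 Osbpl6 probe sets were not called.

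Agr2, a protein disulfide isomerase needed for mucin folding, was 1 of 4 reversed probe sets. Agr2 read 9194, 7512, 7546, 8796 and 8223 in B6-scid and 19033, 15773, 15259 and 19528 in NOD-scid lacrimal gland. In submandibular gland it read 284, 454, 359, 543 and 409 in B6-scid and 131, 34.8, 75.3, 93.2 and 97.1 in NOD-scid. NOD-scid samples were above all B6-scid samples in lacrimal gland and below all of them in submandibular gland, where the level was far lower. Agr2 rose by 1.07 (SE 0.23, adjusted p = 0.0185) in the first and fell by 1.93 (SE 0.22, adjusted p = 4.62e-05) in the second, an interaction of 3.00 (SE 0.32, adjusted p = 0.000193). It was 2.97 without the 4 samples (adjusted p = 0.00161, the highest over the alternatives), with the lacrimal difference at 0.93 and no longer called. At 9 weeks the submandibular gland had 262 to 1070 in B6-scid and 13.0 to 170 in NOD-scid mice, a difference of -2.73 (adjusted p = 0.0276). A second, dim Agr2 probe set was not called in either gland (interaction -0.08). Agr2 is also made by mucous cells, and the summed signal of the 2 sublingual markers on the arrays was 1390 to 2418 in B6-scid and 493 to 920 in NOD-scid submandibular gland, almost all of it from 1 Bpifb2 probe set. In lacrimal gland that sum was 263 to 1392 and 266 to 406, and its part in the Agr2 result was not tested.

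Olfml2a, an olfactomedin-like extracellular protein, read 35.4, 39.4, 61.0, 88.2 and 84.0 in B6-scid and 320, 184, 359 and 149 in NOD-scid lacrimal gland, against 255, 298, 233, 249 and 256 and 81.7, 39.2, 67.6, 194 and 116 in submandibular gland. The order of the strains was turned round without overlap. Olfml2a rose by 1.57 (adjusted p = 0.00825) in lacrimal gland and fell by 1.25 (adjusted p = 0.0482) in submandibular gland, with an interaction of 2.82 (SE 0.42, adjusted p = 0.00315, at most 0.0207 over the alternatives). Without the 4 samples neither gland alone was called. At 9 weeks the submandibular strains overlapped, with a difference of -0.24 (adjusted p = 0.95).

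The other 2 reversed probe sets have no gene symbol. The one read 1390 to 2838 and 638 to 939 in lacrimal gland of B6-scid and NOD-scid and 1812 to 2149 and 3660 to 4680 in submandibular gland. The other read 838 to 2015 and 287 to 559, and 182 to 416 and 496 to 972. Both were lower in NOD-scid lacrimal and higher in NOD-scid submandibular gland, with interactions of -2.32 (adjusted p = 0.000466) and -2.96 (adjusted p = 0.00121). Of the 4 reversed probe sets, the second of these alone was still called in both glands without the 4 samples (lacrimal -1.62, adjusted p = 0.0461, and submandibular 1.52, adjusted p = 0.0257).

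**Figure D5:**
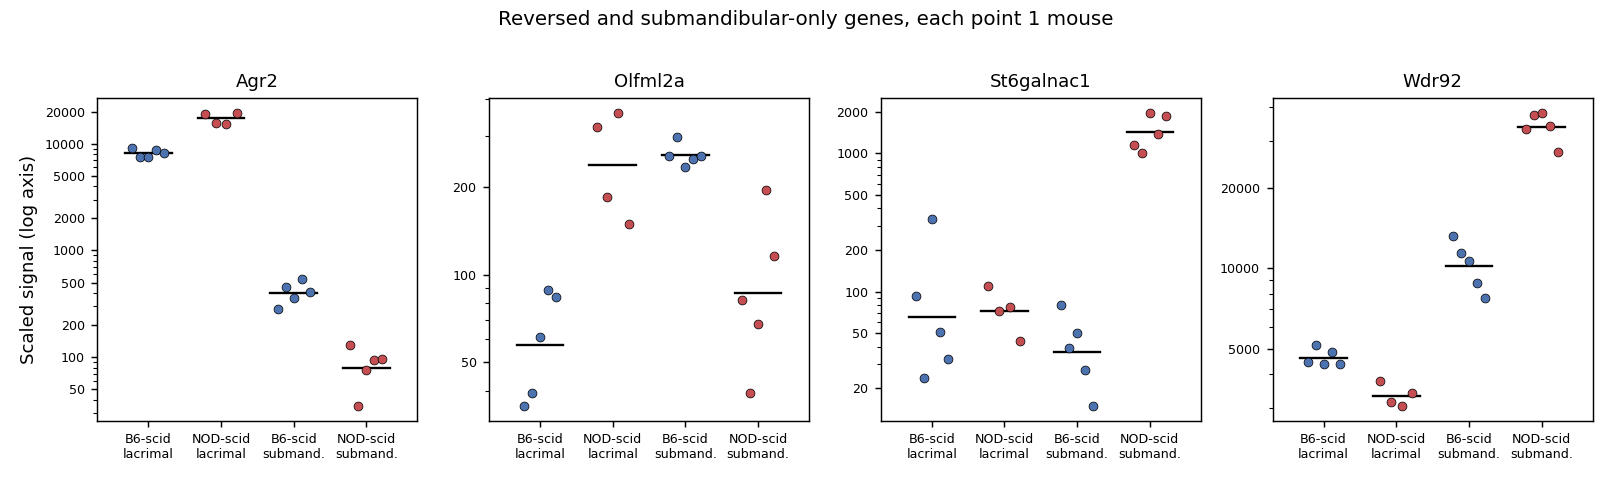
Scaled signal (log axis) of Agr2, Olfml2a, St6galnac1 and Wdr92 in the 19 samples by strain and gland, 1 point per mouse, with the geometric mean as a bar. Agr2 and Olfml2a are higher in NOD-scid lacrimal and lower in NOD-scid submandibular gland, while St6galnac1 and Wdr92 are higher in NOD-scid submandibular gland.

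Some strain differences ran the same way in both glands and differed in size. Ly6e, an interferon-induced surface protein, read 33699, 39052, 66692, 34796 and 43776 in B6-scid and 439, 245, 498 and 98.1 in NOD-scid lacrimal gland. In submandibular gland it read 21240 to 23131 in B6-scid and 3851 to 5933 in NOD-scid. The strains were far apart in both glands, and the NOD-scid level was lower in lacrimal than in submandibular gland. Ly6e fell by 7.10 (SE 0.32, adjusted p = 2.52e-10) and by 2.23 (SE 0.30, adjusted p = 0.000363), an interaction of -4.87 (SE 0.44, adjusted p = 3.81e-05, at most 0.00018 over the alternatives). It was also lower in NOD-scid mice in the samples outside the contrast, with a difference of -3.25 at 9 weeks and -4.55 in pancreas, both called. Another Ly6e probe set fell by 1.89 and 1.19, with an interaction of -0.70 (adjusted p = 0.523), another, dim one gave 0.68, and the first can match other Ly6 genes, so the gland difference in size rests on 1 probe set.

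BC018473 read 72.3 to 324 in B6-scid and 14519 to 21948 in NOD-scid lacrimal gland, against 32.7 to 228 and 713 to 1725 in submandibular gland. It rose by 6.43 and 2.60, an interaction of 3.83 (SE 0.57, adjusted p = 0.00315, at most 0.0294 over the alternatives). Fxyd3, a regulator of the sodium pump, fell by 2.85 from 5820 to 7561 down to 751 to 1030 in lacrimal gland and by 1.20 in submandibular gland, from 9323 to 12428 down to 3261 to 5517. The interaction of Fxyd3 was -1.65 (SE 0.26, adjusted p = 0.00511), and without the 4 samples -1.54 (adjusted p = 0.0738, the highest over its alternatives). Pigv, a mannosyltransferase of membrane anchor synthesis, fell more in submandibular gland, by 3.60 against 1.43, from 752 to 1084 down to 15.5 to 161. The Pigv interaction of 2.17 (adjusted p = 0.0334) was lost on leaving out any of 13 samples singly, with adjusted p up to 0.0739 without NOD-scid lacrimal sample 1, and without the 4 samples (0.13), and reached 0.15 over the alternatives. With submandibular samples of 9 weeks in place of 15 weeks the Pigv interaction was 0.69 and not called (adjusted p = 0.82).

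Among probe sets called in 1 gland whose other gland's uncalled difference reached 0.5, some were chosen for mention after their values were seen. Psmd10, an assembly chaperone of the proteasome, read 30.1 to 47.4 in B6-scid and 134 to 220 in NOD-scid lacrimal gland, against 114 to 234 and 20.5 to 194 in submandibular gland (interaction 2.99, SE 0.45, adjusted p = 0.00335). The Psmd10 interaction was 3.20 without the 4 samples (adjusted p = 0.022), where neither gland alone was called (lacrimal 0.0721, submandibular 0.0843), and a second Psmd10 probe set gave 0.48 (adjusted p = 0.861). Gna14, a G protein subunit, read 129 to 175 in B6-scid and 8.88 to 42.9 in NOD-scid submandibular gland, against 27.4 to 132 and 95.7 to 179 in lacrimal gland (interaction 2.56, SE 0.40, adjusted p = 0.00491). In both genes the strains were in opposite order in the 2 glands, with overlap in the gland that was not called. Ly6d, a Ly6 family surface protein, fell by 1.89 in NOD-scid submandibular gland at 15 weeks and by 2.01 (adjusted p = 0.0254) at 9 weeks, and differed by 0.66 in lacrimal gland (interaction 2.55, adjusted p = 0.029, at most 0.0631 over the alternatives). A second, dim Ly6d probe set was not called (-0.81, adjusted p = 0.715).

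Unnamed probe sets held the largest interaction, and 2 of them were singled out after their values were seen. The one had 6.72 to 231 in B6-scid and 44053 to 60817 in NOD-scid submandibular gland, and 7.06 to 116 and 7.84 to 569 in lacrimal gland, with 569 in NOD-scid lacrimal sample 4. Its interaction was -7.67 (SE 0.88, adjusted p = 0.000249), and at 9 weeks its submandibular difference was 9.13. The other fell in NOD-scid submandibular gland from 35142 to 55507 down to 683 to 1302, and fell in lacrimal gland from 1442 to 7637 down to 606 to 1083 (interaction 3.86, SE 0.49, adjusted p = 0.000785).

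Kallikreins of the granular ducts, serine proteases that the submandibular gland stores, gave a lacrimal difference that depended on which samples were kept. Klk1 read 2883, 20293, 6539, 2993 and 2444 in B6-scid and 310, 252, 325 and 3983 in NOD-scid lacrimal gland, against 63616 to 108327 and 79024 to 106225 in submandibular gland. All B6-scid lacrimal samples exceeded NOD-scid samples 1 to 3, and NOD-scid sample 4 lay within the B6-scid range. With all samples the interaction of Klk1 was -3.09 (SE 0.90, adjusted p = 0.207). Leaving out the 4 samples gave -3.26, from a lacrimal difference of -3.10 and a submandibular one of 0.16. This is a description with no test, since NOD-scid lacrimal sample 4 was left out for high Mucl1 and Prol1 among NOD-scid lacrimal samples, and its Klk1 was high among them too. Of the alternatives that kept this sample, 1 fit of all 39 samples called Klk1 (adjusted p = 0.0274). A second, dim Klk1 probe set had an interaction of -4.16 (adjusted p = 0.07).

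Of 13 granular duct genes tested, 0 passed in the interaction with all samples by limma, although all 13 lay below 0, with a median of -2.07. Leaving out the 4 samples put the median at -2.31, again as a description. Probe sets of the tissue kallikreins share much sequence, so they are not independent measurements. Egf, the growth factor of the same ducts, read 3061 to 4251 in B6-scid and 2698 to 3276 in NOD-scid lacrimal gland (interaction -1.54, adjusted p = 0.335). NOD-scid lacrimal sample 4 read 3083 for Egf, so not all granular duct transcripts were raised in it. Prol1 read 39542 to 48480 in B6-scid lacrimal samples 1, 4 and 5 and 1259 to 2043 in NOD-scid samples 1 to 3, against 62089 to 127302 in submandibular gland (interaction with all samples not called, adjusted p = 0.189, and -5.04 without the 4 samples, with no test for the same reason). Whether these transcripts came from lacrimal cells or from adjoining salivary tissue was not tested.

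The remaining lists held few or no interaction calls. Of 39 matrix genes 0 were called, with a median interaction of -0.48 and 32 of 39 below 0; of 60 genes of oxidative phosphorylation 0 were called (median 0.20); and of 32 ion transport genes Fxyd3 alone was called. Macrophage (15 tested), chemokine and cytokine (23), complement (22), T cell (11), B cell (12), natural killer cell (9), neutrophil (11), adipocyte (14) and muscle (15) lists held 0 calls each, with medians from -0.40 to 0.13. The neutrophil chemokine Cxcl1 read 292 to 992 in B6-scid and 13.0 to 49.2 in NOD-scid lacrimal gland without overlap and fell by 3.30 (adjusted p = 0.000407). In submandibular gland Cxcl1 was 35.7 to 339 and 29.5 to 112 (difference -0.79), and its interaction of -2.50 (SE 0.63) was not called (adjusted p = 0.122). The second Cxcl1 probe set gave -0.64 (adjusted p = 0.856). Nnt and the complement gene Hc, whose alleles are known to differ between mouse strains, had interactions of -0.28 and -0.04, neither called.

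Samples outside the contrast were used for a separate look at the submandibular side. At 9 weeks 91 of 29515 probe sets were called between the strains (0.308%), 40 higher (0.136%) and 51 lower (0.173%) in NOD-scid. All 7 submandibular-only probe sets had the same sign at 9 as at 15 weeks and 2 were called, St6galnac1 and an unnamed one, and of the 11 partial submandibular ones 9 were tested, all with the same sign and 4 called. All 8 of same direction and unequal size kept their sign and 5 were called. Of the 31 lacrimal-only probe sets tested at 9 weeks 0 were called by limma, and of the 29 tested in pancreas of 6 weeks 0 were called, where 127 of 28733 probe sets were (0.442%, with 0.282% lower in NOD-scid). H2-D1 fell in pancreas by 1.24 (adjusted p = 0.0373) and a second H2-K1 probe set by 1.29 (adjusted p = 0.0172), so a lower NOD-scid level of these probe sets was not particular to the lacrimal gland, while B2m differed there by -0.23 (adjusted p = 0.775). These comparisons share no samples with the interaction, but gland and age differ together between pancreas and the other samples.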

How the data were processed

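Total RNA of each gland was labelled and hybridised to Affymetrix MG-U74 version 2 arrays A, B and C. The deposited values are MAS5 signal intensities on a linear scale, per the submitters' processing notes and the file headers, scaled by the authors to a 2% trimmed mean of 2500.5 to 2501.7 per array. Versions were not given in the sources used here. Signals were rescaled to a trimmed mean of 500, and log2(signal + 32) was taken over 36701 probe sets without controls. Of these, 29131 had 1 symbol in the platform annotation, 724 several and 6846 none.

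Probe sets with a scaled signal of at least 100 on at least 4 arrays were fitted with limma 3.58.1 (R 4.3.3), with 4 group means over 19 samples and 15 residual degrees of freedom. Benjamini-Hochberg adjustment ran over all probe sets, and calls needed an adjusted p under 0.05. Submandibular gland of 9 weeks and pancreas were fitted alone. The number of arrays limits the precision. The fit was tested on simulated data.

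Lists and classes were chosen with earlier results of these data known. Named genes were called probe sets with 1 symbol and no overlap of the strains in the called gland, 1 per gene: the 8 largest per direction for 1 gland only, the 10 largest reversed, the 5 largest of same direction, up to 6 called per list, and 12 genes always given. A list counts 1 probe set per gene. Mouse numbers shared by both glands were checked for pairing in 9 pairs: correlations of deviations were -0.0263 to 0.0356, so no mouse block was used. Alternatives changed the pseudocount, filter, scaling, samples and weights. Leaving out samples with another gland's transcripts was chosen after seeing the data.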

Additional observations from a re-analysis of the deposited data

Results flagged for a closer look

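In 8 of 164 groups of named-gene values, 1 sample stood farther from the rest than the 95% critical value of Dixon's test allows, and chance gives about 1 in 20 groups. B6-scid submandibular sample 3 read 217 for Cyp27b1 against 70.2 to 88.8 in the other 4, and 32.7 for BC018473 against 162 to 228. B6-scid submandibular sample 1, which also held lacrimal transcripts, read 3380 for Hspa5 against 6040 to 7380 and 127 for Hc against 13.6 to 19.9. B6-scid lacrimal sample 5 read 178 for Trim16 against 68.7 to 85.7. B6-scid lacrimal sample 2 read 12100 for Noct against 6840 to 8040. NOD-scid submandibular sample 3 read 161 for Pigv against 15.5 to 37.2. NOD-scid lacrimal sample 4 read 3980 for Klk1 against 252 to 325.

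By the interaction test itself, the strain difference differed between the glands in 90 probe sets, of which 34 were lacrimal only, 7 submandibular only, 4 reversed and 8 of the same direction and unequal size.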

How the results depend on the processing

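The 90 interaction calls became 48 with the submandibular samples of 9 weeks in place of those of 15 weeks. With fixed effects for mouse (strain and number), as if same-numbered glands came from 1 mouse, they became 36, of which 33 were among the 90. A block by number alone gave 75, of which 66 were among the 90. A random mouse block kept all 90, but its consensus correlation was 0.00345, so that fit was almost the main one and could hardly change a call. Same-numbered glands did not deviate together (3 of 9 samples correlated best with their own number). This cannot tell whether equal numbers are 1 mouse, since glands of 1 mouse need not deviate together. The 627 lacrimal calls became 265 with the lacrimal samples fitted alone, 369 without B6-scid lacrimal samples 2 and 3, and 304 without the 4 samples with another gland's transcripts. The 45 lacrimal-only, submandibular-only and reversed probe sets became 71 with a pseudocount of 100, 24 with a limit of 0.25 and 70 with a limit of 1 for the other gland. In 1 fit of all 39 samples, the 91 calls at 9 weeks became 451 and the 127 in pancreas 295. Leaving out each sample in turn gave 61 to 109 interaction calls, 466 to 643 lacrimal calls, 180 to 256 submandibular calls and 30 to 59 in the 3 patterns. The causes were not tested. Every other alternative stayed within 1.5 times its count. The interactions of Prkdc (to 0.14 with 9 weeks), Hc and Nnt, none called, changed sign in 1, 9 and 2 alternatives, and those of the other named genes in none. Of 32 called named genes 20 were lost with 9 weeks, 21 with the fixed mouse block and 7 with the block by number. Probe sets near the signal minimum of 100 have values of little order, and 4 to 5 arrays per group limit what could be called.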
